A study of Mus musculus with 12 samples.

Results

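A group of 7 genes of gap junctions and related channels were followed in whole mouse ovaries: the connexins Gja1, Gja4, Gja5, Gjc1, Gjb2 and Gja6 and the pannexin Panx1. They were chosen by symbol, for their place in oocytes, granulosa cells or vessels, and all 7 were found among the 24255 genes of the deposited table. RNA was sequenced from ovaries of C57BL/6 mice aged 6 months, 46 h after 5 IU of equine chorionic gonadotropin, which makes follicles grow. Wild-type ovaries (WT, n = 7 libraries) were compared with ovaries whose oocytes lack the kinase Mtor through a Cre recombinase driven by the Gdf9 promoter (CKO, n = 5 libraries). The promoter restricts Cre to oocytes, so granulosa, theca, vascular and other cells of CKO ovaries keep Mtor. All mice of both groups received the hormone, and the labels do not say whether WT mice carried floxed alleles or Cre. Animals are not identified, and a p-value therefore reflects only how much these libraries scatter, part of which may be technical.

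Connexins form hexameric hemichannels that dock between neighbouring cells, and the resulting gap junctions pass ions, cyclic nucleotides and metabolites. In the follicle, connexin 43 (Gja1) joins granulosa cells to each other, and connexin 37 (Gja4) joins the oocyte to the cumulus cells around it. Connexins 37 and 40 (Gja5) also couple arterial endothelial cells, connexin 45 (Gjc1) is found in vascular smooth muscle, and pannexin 1 forms channels to the outside of the cell.

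Levels are given in FPKM (fragments per kilobase of a transcript, scaled to the fragments mapped in the library). Relative depth, read from the steps of low values, varied 2.18-fold between libraries, at 1.097 ± 0.209 over WT (SD, n = 7), against 1.139 ± 0.307 over CKO (SD, n = 5) relative to WT replicate 1. Sample titles numbered the libraries, and sample descriptions matched 11 columns to them. The name of the remaining WT column is the title of 1 WT sample and the description of another. That library is called unnumbered here, although WT replicate 5 is the only sample matched to no other column. Mtor RNA was at 3.84 to 5.55 FPKM in WT and 4.63 to 5.88 FPKM in CKO, which does not check the labels, since oocytes are a small part of the organ. Markers of granulosa cells, theca, vessels and oocytes were detected in both genotypes. Of 13168 genes tested with limma on log2(FPKM + 1), 16.3% were called at a Benjamini-Hochberg adjusted p under 0.05, 8.7% higher and 7.59% lower in CKO.

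The stretches upstream of Gja1 and Gja4 are shown because these are the main follicular connexins and differed in their response. Each holds the 250 bases before the transcription start, 5′ to 3′ on the strand of the gene (RefSeq, GRCm38.p6), at chr10:56377050-56377299, plus strand, for Gja1 and at chr4:127314040-127314289, minus strand, for Gja4. Capitals mark matches on either strand to TGANTCA (AP-1), TGACG (the core of a cyclic AMP response element) or GGGCGG (the GC box).
Gja1: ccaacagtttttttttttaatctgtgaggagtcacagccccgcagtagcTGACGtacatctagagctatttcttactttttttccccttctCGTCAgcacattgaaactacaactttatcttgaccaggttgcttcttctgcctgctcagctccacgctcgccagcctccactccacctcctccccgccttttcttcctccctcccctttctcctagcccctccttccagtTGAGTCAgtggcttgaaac
Gja4: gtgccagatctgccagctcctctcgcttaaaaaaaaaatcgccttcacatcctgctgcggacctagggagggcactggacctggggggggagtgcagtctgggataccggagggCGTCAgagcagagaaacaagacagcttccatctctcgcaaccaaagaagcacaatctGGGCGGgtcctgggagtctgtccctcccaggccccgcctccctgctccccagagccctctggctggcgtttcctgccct
The Gja1 stretch holds 1 TGANTCA, written TGAGTCA and starting 19 bases before the start site, and 2 TGACG. The Gja4 stretch holds 1 TGACG and 1 GGGCGG, and no TGANTCA. Among 32851 such stretches of the mouse genome, 6.7% hold TGANTCA, 17.8% TGACG and 32.7% GGGCGG. None of the marked matches overlaps another. Of the 6 members with an entry, Gja1 alone holds TGANTCA, while TGACG also occurs upstream of Gja5, Panx1 and Gjb2. Neither AAGGNCA (the NR5A nuclear receptor motif) nor TATAAA occurs upstream of Gja1 or Gja4. Guanine and cytosine make up 50.0% of the Gja1 stretch and 61.2% of the Gja4 stretch, against a median of 52.4%. These matches describe the letters and were not tested for binding.

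Gja1 RNA fell to about 0.47 of its WT level in CKO ovaries, while the other 4 members tested, Gja4, Gja5, Gjc1 and Panx1, did not pass the test. Of the 7 members, 5 passed the filter of at least 1 FPKM in at least 5 of the 12 libraries. Of these 5, 1 was called lower and 0 were called higher by limma (also 1 and 0 at an unadjusted p under 0.05 and by the exact Wilcoxon test), against 7.59% and 8.7% of all genes tested. The median log2 fold change of the 5 was -0.07, against -0.01 over all genes tested. Whole-ovary RNA cannot tell fewer cells of a type from less RNA per cell.

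**Figure D1:**
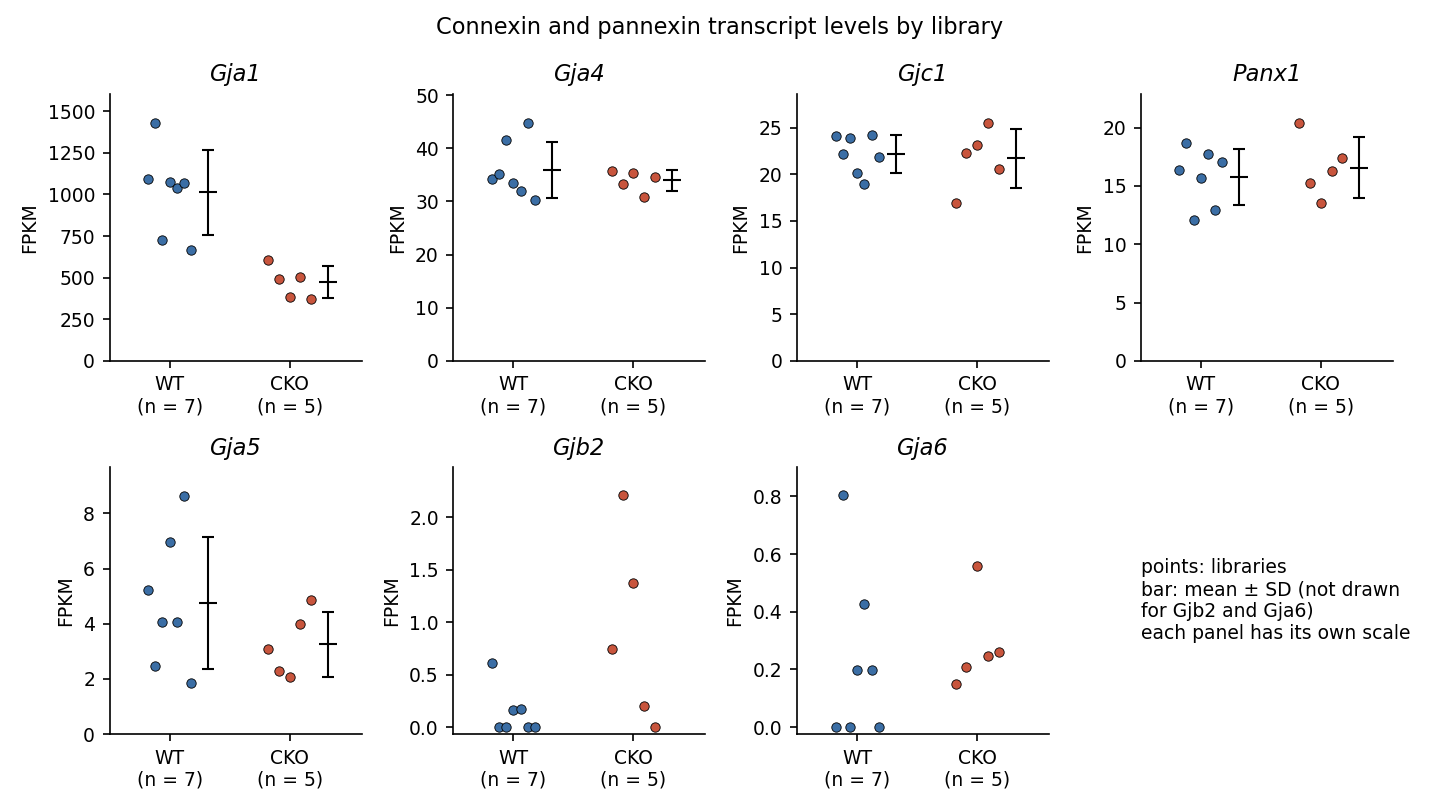
FPKM of the 7 members in each library (points), with the mean and SD of WT (n = 7) and CKO (n = 5) as a bar, on a separate linear scale per gene. No bar is drawn for Gjb2 and Gja6, which are listed at 0 in some libraries. All CKO values of Gja1 lie below all WT values, between 374 and 609 FPKM against 666 to 1432 FPKM, and the other 6 members overlap.

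Gja1, which encodes connexin 43, lies on chromosome 10 (56377300 to 56390419, plus strand) and has its whole coding sequence in 1 of 2 exons. Its lowest, median and highest levels in WT were 666, 1070.2 and 1432 FPKM. In CKO replicates 1 to 5 it was at 609, 493, 386, 503 and 374 FPKM. The groups did not overlap. Of all genes tested, 3.65% were likewise lower in CKO without overlap, and 7.73% did not overlap in either direction. The lowest WT values were in the unnumbered library (666 FPKM) and replicate 3 (728 FPKM), and the highest CKO value was in replicate 1. The mean was 1015 ± 255 FPKM over WT (SD, n = 7), against 473 ± 96.3 FPKM over CKO (SD, n = 5). Its log2 fold change was -1.08 (SE 0.19), with a 95% interval of -1.49 to -0.67 (limma, adjusted p = 0.002). An exact permutation test of Gja1 alone, two-sided, gave p = 0.0025 (adjusted p = 0.0177 over the 7 members). Of the 999 genes called lower in CKO, 265 had a larger fall on this scale. By FPKM, Gja1 ranked between 14 and 41 among all genes in WT libraries and between 71 and 134 in CKO libraries. The authors' deposited table gives a log2 fold change of -1.10 with q = 0.0006.

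Granulosa markers moved with Gja1. Of 15 granulosa markers, 13 fell and 1 rose by limma. The exact Wilcoxon test called 10 lower and 0 higher. Ihh, a hedgehog ligand of growing follicles, was at 38.4 ± 10.0 FPKM over WT (SD, n = 7), against 3.90 ± 5.25 FPKM over CKO (SD, n = 5). Nap1l5 was at 271 ± 96.3 FPKM and 29.1 ± 34.8 FPKM in the same groups. The summed level of the list was 4008 to 7117 FPKM across WT, against 1445 to 2666 FPKM across CKO, and no member was at 0 in all libraries. Estimated falls were larger than that of Gja1 in 12 of the 15 markers. Foxl2, a regulator of granulosa identity, had a log2 fold change of -0.49 (adjusted p = 0.035, limma), Amhr2, the receptor of anti-Müllerian hormone, one of 0.11 (adjusted p = 0.77), and Gatm rose by 0.71 (adjusted p = 0.0212). These 3 were named as the exceptions to the larger falls. On the log2(FPKM + 1) scale, Gja1 exceeded the mean of the granulosa list by 3.28 ± 0.28 over WT (SD, n = 7), against 4.29 ± 0.37 over CKO (SD, n = 5). These distances ran from 2.99 to 3.76 in WT and from 3.65 to 4.55 in CKO, so that they overlapped. Markers of dividing cells, 9 of 10 of which fell by limma (8 by the exact Wilcoxon test), moved in the same direction. Their summed level was 116 to 186 FPKM in WT and 51.5 to 110 FPKM in CKO. Macrophage markers moved the other way, since 8 of 10 rose by limma (4 by the exact Wilcoxon test). The summed macrophage level was 308 to 1135 FPKM across WT and 930 to 2036 FPKM across CKO. Of 9 theca and steroidogenic markers 0 were called by limma (2 lower at an unadjusted p under 0.05, 0 by the exact Wilcoxon test), and of 6 luteal markers 1 fell. The part of these cell types in the Gja1 result was not tested.

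**Figure D2:**
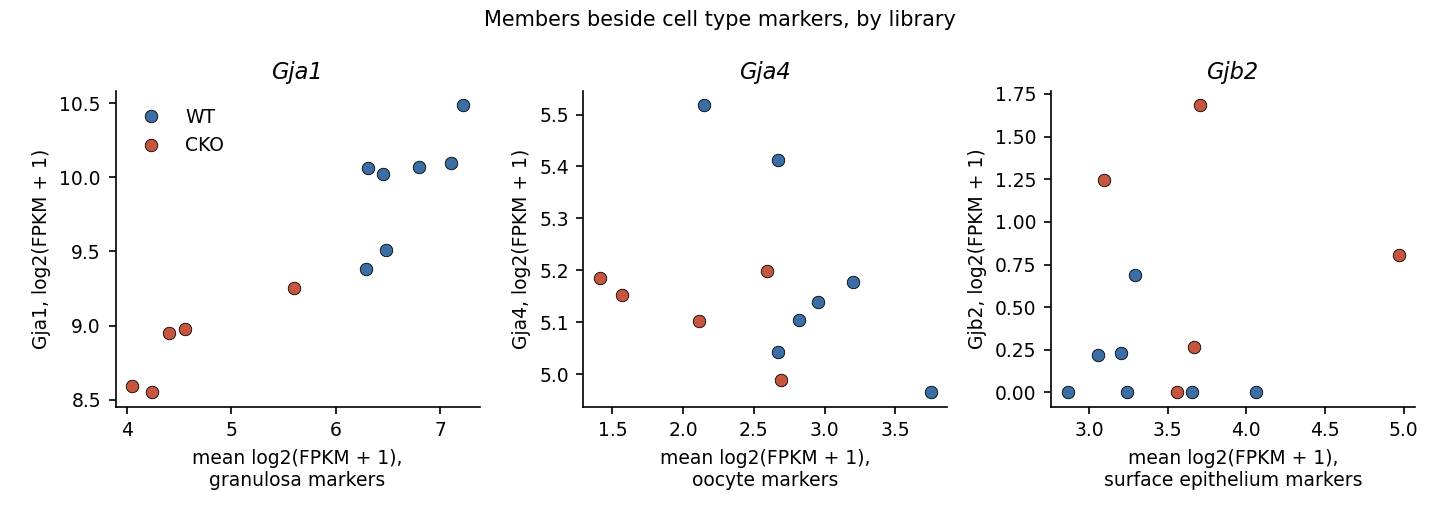
Level of Gja1, Gja4 and Gjb2 in each library as log2(FPKM + 1) (y axes) against the mean log2(FPKM + 1) of a marker list (x axes; axes do not start at 0), with WT in blue and CKO in red. CKO replicate 1 has the highest granulosa marker mean (5.60) and the highest Gja1 level of the CKO libraries, while Gja4 stays between 30.2 and 44.8 FPKM where the oocyte marker mean runs from 1.41 to 3.75.

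Among the CKO libraries, replicate 1 had the highest mean of the granulosa list, 5.60, against 4.05 to 4.56 in the other 4, and also the highest Gja1 level. It was also the library with the highest blood marker mean, at 4.89, followed by replicate 5 at 4.42. Of the CKO libraries, replicate 1 also had the highest macrophage (6.71), surface epithelium (4.97) and dividing cell (2.72) means. Its theca (6.64) and luteal (4.99) means were the lowest of the CKO libraries, and its relative depth, 1.646, was the highest of all libraries. Without CKO replicates 1 and 5 the log2 fold change of Gja1 was -1.11 (adjusted p = 0.00876, limma).

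Gja4, which encodes connexin 37, the connexin of the oocyte surface, showed no difference that passed the test. It lies on chromosome 4 (127311420 to 127314039, minus strand), with its coding sequence in 1 of 2 exons. Its lowest, median and highest levels in WT were 30.2, 34.2 and 44.8 FPKM. In CKO replicates 1 to 5 it was at 35.7, 33.3, 35.4, 30.8 and 34.6 FPKM, all within the WT range. The mean was 35.9 ± 5.31 FPKM over WT (SD, n = 7), against 34.0 ± 2.01 FPKM over CKO (SD, n = 5). The log2 fold change was -0.07 (SE 0.10, adjusted p = 0.714, limma). Its 95% interval, -0.29 to 0.16, leaves out a fall of the size seen for Gja1. The 2 WT libraries with the most Gja4 were replicates 7 (44.8 FPKM) and 3 (41.6 FPKM).

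Several transcripts of the oocyte itself fell in the same libraries. Of 15 oocyte markers, 11 could be tested, 4 fell and 0 rose by limma (5 lower and 0 higher at an unadjusted p under 0.05, 2 and 0 by the exact Wilcoxon test). Bmp15, a growth factor secreted by oocytes, had a log2 fold change of -2.71 (adjusted p = 0.000625, limma), and Gdf9, whose promoter drives the Cre, one of -2.62 (adjusted p = 0.00184). Zp3, a zona pellucida protein, and Ooep, a protein of the egg cortex, also fell, by 1.27 and 1.17 on the log2 scale. Figla, Kit and Nobox had estimates in the other direction, 0.74, 0.26 and 0.17 (adjusted p = 0.227, 0.5 and 0.792, limma). Nlrp5 had an estimate of -0.02. Of the 11 tested, 7 had an estimate below that of Gja4. The summed level of the 15 markers was 66.5 to 228 FPKM in WT and 27.6 to 84.9 FPKM in CKO. Gja4 exceeded the oocyte list mean by 2.31 ± 0.66 over WT (SD, n = 7), against 3.05 ± 0.63 over CKO (SD, n = 5) on the log2(FPKM + 1) scale. Across libraries, the highest oocyte mean (3.75, unnumbered WT) went with the lowest Gja4 level (30.2 FPKM).

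Endothelial cells also express Gja4. Of 10 endothelial markers, 9 could be tested, 1 rose and 0 fell by limma. At an unadjusted p under 0.05, 4 were higher and 0 lower, and the exact Wilcoxon test called 1 and 0. Tek, a receptor of angiopoietins, rose from 6.75 ± 1.55 FPKM over WT (SD, n = 7) up to 10.4 ± 1.27 FPKM over CKO (SD, n = 5). Pecam1, an adhesion molecule of endothelial cells, was at 34.7 ± 9.73 and 46.2 ± 7.16 FPKM (adjusted p = 0.136, limma). Kdr and Flt1 had estimates in the other direction, -0.18 and -0.09 (adjusted p = 0.592 and 0.845, limma), and Cdh5 one of 0.03. The median log2 fold change of the 9 was 0.26, against -0.01 over all genes tested. The summed endothelial level was 112 to 253 FPKM in WT and 188 to 267 FPKM in CKO. Of 7 arterial markers, 6 were tested, and Cxcl12 and Sox17 rose by 1.15 and 0.53 on the log2 scale (adjusted p = 0.000413 and 0.0464, limma). The exact Wilcoxon test called 1 of the 6 higher and 0 lower. Cxcl12, a chemokine, is also made by stromal cells. Unc5b, a netrin receptor, had an estimate in the other direction, -0.46 (adjusted p = 0.0536, limma), as had Efnb2, an ephrin ligand of arteries, at -0.24 (adjusted p = 0.347, limma). The median log2 fold change of the 6 was 0.09, against -0.01 over all genes tested. Above the arterial list mean, Gja4 stood at 1.35 ± 0.14 over WT (SD, n = 7), against 1.09 ± 0.09 over CKO (SD, n = 5). These distances ran from 1.16 to 1.52 in WT and from 0.99 to 1.21 in CKO, so that they overlapped. The list mean includes Cxcl12, the arterial marker with the largest rise. The unnumbered WT library, with the least Gja4, had the lowest endothelial (3.28) and arterial (3.51) means of all libraries. WT replicate 7, with the most Gja4, had the highest endothelial mean of the WT libraries (4.46). In contrast, CKO replicate 4, with the highest endothelial mean of all (4.51), had the least Gja4 of the CKO libraries. The shares of oocytes and vessels in the Gja4 level were not tested.

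Gja5, the connexin 40 of arterial endothelium, was low and variable. It lies on chromosome 3 (97032402 to 97053634, plus strand). Its lowest, median and highest levels in WT were 1.87, 4.08 and 8.64 FPKM. In CKO replicates 1 to 5 it was at 3.08, 2.30, 2.06, 3.99 and 4.85 FPKM, all within the WT range. The log2 fold change was -0.37 (SE 0.28), with a 95% interval of -0.98 to 0.24 (adjusted p = 0.421, limma), which includes a fall as large as 0.98. The authors' deposited table gives -0.55 with p = 0.0402 and q = 0.153. WT replicates 7 (8.64 FPKM), 4 (6.95 FPKM) and 1 (5.21 FPKM) lay above every CKO library. Without WT replicate 7 the log2 fold change was -0.23 (adjusted p = 0.623, limma), and without CKO replicates 2 and 3 it was -0.12 (adjusted p = 0.862, limma). The lowest WT value was in the unnumbered library, which also had the lowest endothelial mean, 3.28 against 3.86 to 4.46 in the other WT libraries. Relative to the arterial list mean, Gja5 stood at -1.43 ± 0.44 over WT (SD, n = 7), against -1.99 ± 0.42 over CKO (SD, n = 5). The ranges, -1.99 to -0.85 in WT and -2.44 to -1.5 in CKO, overlapped, and this list mean also includes Cxcl12. Antisense transcripts overlap this locus in GENCODE M21, and without a stated use of strand their reads cannot be told apart from those of Gja5.

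Gjc1 and Panx1 did not pass the test either. Gjc1, the connexin 45 of vascular smooth muscle, lies on chromosome 11 (102799477 to 102819686, minus strand). Its lowest, median and highest levels in WT were 19.0, 22.1 and 24.2 FPKM, and in CKO replicates 1 to 5 it was at 17.0, 22.2, 23.1, 25.5 and 20.6 FPKM. The CKO libraries held both the lowest and the highest value of all 12. The log2 fold change was -0.04 with a 95% interval of -0.27 to 0.19 (adjusted p = 0.852, limma), and without CKO replicate 1 it was 0.04. None of the 10 smooth muscle and pericyte markers passed limma (0 higher and 0 lower, against 3 and 1 at an unadjusted p under 0.05 and 0 by the exact Wilcoxon test), and their summed level was 316 to 532 FPKM in WT and 338 to 891 FPKM in CKO. The smallest p values of that list were those of Des, the muscle intermediate filament desmin (log2 fold change 0.71, adjusted p = 0.0701, limma), and Myh11, smooth muscle myosin (0.40, adjusted p = 0.12). Rgs5, Cspg4 and Mcam had estimates in the other direction, -0.64, -0.28 and -0.06 (adjusted p = 0.157, 0.257 and 0.841, limma). The median log2 fold change of the 10 was 0.16.

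Panx1 lies on chromosome 9 (15005785 to 15045478, minus strand) and, unlike the connexins Gja1, Gja4, Gjc1, Gjb2 and Gja6 with 1 coding exon each, is encoded over 5 exons. Its lowest, median and highest levels in WT were 12.1, 16.4 and 18.7 FPKM. In CKO replicates 1 to 5 it was at 20.4, 15.2, 13.5, 16.3 and 17.4 FPKM. Only CKO replicate 1 lay outside the WT range. The log2 fold change was 0.07 with a 95% interval of -0.21 to 0.35 (adjusted p = 0.772, limma), and without CKO replicate 1 it was -0.01.

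Gjb2 and Gja6 did not pass the filter. Gjb2, the connexin 26 of epithelia (chromosome 14, 57098602 to 57104702, minus strand), had no value above 0 in 4 of 7 WT libraries and stood at 0.613, 0.162 and 0.175 FPKM in WT replicates 1, 4 and 6. In CKO replicates 1 to 5 it was at 0.745, 2.21, 1.38, 0.204 and 0 FPKM. After scaling for relative depth, the nonzero values were whole multiples of the smallest, within 0.1. They stood at 6, 13, 6 and 1 steps in CKO replicates 1 to 4 and at 3, 1 and 1 steps in WT replicates 1, 4 and 6. If the smallest step is 1 fragment, these are counts of at most 13 fragments. The 3 highest values were in CKO libraries, and the groups overlapped. The exact two-sided permutation test gave p = 0.0442, which did not pass after adjustment over the 7 members (adjusted p = 0.155). Without CKO replicate 5 the adjusted p was 0.0212. The log2 difference was 0.64 with a pseudocount of 1 FPKM and 1.81 with one of 0.1 (exact permutation test, adjusted p = 0.168). Ovgp1, a gene of oviduct epithelium, was at 252 and 81.9 FPKM in replicates 2 and 3 of CKO, where Gjb2 was highest, and at 1.87 FPKM or less in all the others. The summed level of 5 oviduct markers was 0 to 1.66 FPKM in WT and 1.92 to 262 FPKM in CKO. Ovgp1 was the only one of the 5 that could be tested (log2 fold change 3.09, adjusted p = 0.0517, limma). The surface epithelium keratin Krt19 was highest in CKO replicate 1, at 122 FPKM, where Gjb2 was at 0.745 FPKM. Of 10 surface epithelium markers, 8 were tested and Krt19 rose (adjusted p = 0.039, limma), while the exact Wilcoxon test called 0. The summed surface epithelium level was 64.4 to 170 FPKM in WT and 83.5 to 427 FPKM in CKO. The part of oviduct or surface epithelium in the Gjb2 values was not tested.

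Gja6, the connexin 33 known from testis (chromosome X, 160902116 to 160907052, minus strand), was at 0 in 3 of 7 WT libraries and at 0.804 FPKM or less in the others. In CKO replicates 1 to 5 it was at 0.151, 0.207, 0.559, 0.248 and 0.261 FPKM. These values were 1 to 3 steps in every library above 0. The deposited locus of Gja6 extends far beyond the gene on both sides, so its few fragments cannot be assigned to it with certainty.

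The members ranked in nearly the same order in all libraries. FPKM is scaled to length, but levels of different genes in this table can be compared only with caution. Gapdh, for example, is listed at only 1.06 to 7.05 FPKM. Gja1 was above Gja4, and Gja4 above Gjc1, in 12 of 12 libraries. Gjc1 was above Panx1 in 11 of 12, the exception being CKO replicate 1. Panx1 was above Gja5 in 12 of 12. Gjc1 and Panx1 were therefore neighbours whose levels came within the spread of libraries, since Gjc1 ran from 17.0 FPKM and Panx1 up to 20.4 FPKM. Gjb2 and Gja6 were the lowest, and both were at 0 in some libraries.

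The ratio of Gja1 to Gja4, Gjc1 and Panx1 shifted. Over the 10 pairs of the 5 members tested, the within-library difference of log2(FPKM + 1) changed between genotypes for 3 pairs. All 3 hold Gja1, so these tests reuse its values and are not separate evidence of its fall. Gja1 stood at 17.5 to 40.7 times Gja4 in WT and at 10.8 to 17.0 times in CKO, without overlap (log2 difference -1.01, exact two-sided permutation p = 0.0038, adjusted p = 0.0168). Against Panx1 the ratio was 39.2 to 82.5 in WT and 21.4 to 32.4 in CKO (-1.15, exact permutation p = 0.0013, the smallest possible, adjusted p = 0.0126). Against Gjc1 it was 30.5 to 64.7 and 16.7 to 35.9 (-1.04, exact permutation p = 0.0051, adjusted p = 0.0168), and without CKO replicate 3 the adjusted p was 0.0505. Between Gja1 and Gja5 the difference of -0.71 did not pass (exact permutation p = 0.0568, adjusted p = 0.142). The 6 pairs without Gja1 had adjusted p between 0.464 and 0.817 in the exact permutation test. The ratio of Gja4 to Gjc1 was 1.38 to 1.85 in WT and 1.20 to 2.10 in CKO.

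**Figure D3:**
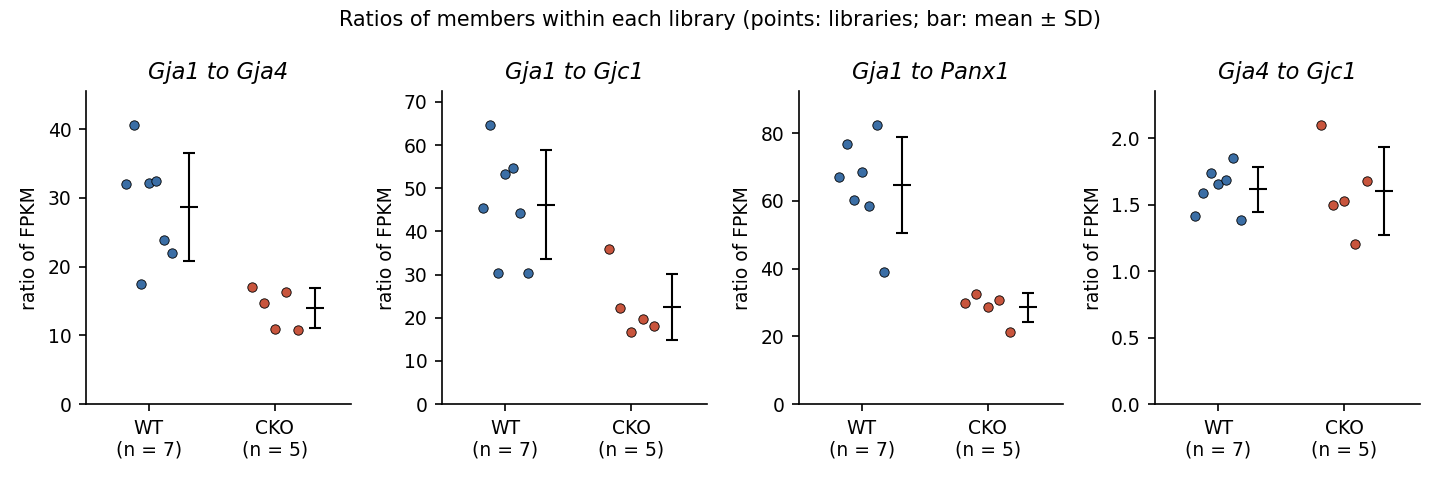
Ratio of the FPKM of 2 members within each library (points; y axes linear from 0), with mean and SD for WT (n = 7) and CKO (n = 5). The ratios of Gja1 to Gja4 and to Panx1 lie lower in all CKO libraries than in any WT library, while the ratio of Gja4 to Gjc1 spans 1.20 to 2.10 in CKO around the WT range of 1.38 to 1.85.

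Summed over the 17 connexin genes examined here, the level was 1080 ± 256 FPKM over WT (SD, n = 7), against 534 ± 94.5 FPKM over CKO (SD, n = 5). Gja1 made up 93.7% ± 1.63 of this sum over WT (SD, n = 7), against 88.2% ± 2.37 over CKO (SD, n = 5). The share of Gja4 was 3.49% ± 0.98 over WT (SD, n = 7), against 6.53% ± 1.28 over CKO (SD, n = 5). The sum without Gja1 was 56.7 to 80.7 FPKM in WT and 58.2 to 64.5 FPKM in CKO. These sums and shares set levels of different genes side by side and carry the same caution.

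The other family members examined had low values in the deposited table. Of 13 other connexins and pannexins, 0 passed the filter, so that none was tested. A low value in this table is not by itself a low expression, since Gapdh, a glycolytic enzyme gene used by all cells, is listed at only 1.06 to 7.05 FPKM. Gja10, Gjb6, Gjd2 and Gje1 were listed at 0 in all 12 libraries, and the deposited loci of Gjd2 and Gje1 extend well beyond the genes, as for Gja6. Gjb5, which encodes a connexin of skin and placenta and lies near Gja4 on chromosome 4, was at most 1.28 FPKM, far below Gja4. Gjd3 reached 2.34 FPKM in WT replicate 7, at 4 steps, and was at 0 in 3 of 7 WT and 4 of 5 CKO libraries. Gjc3, a connexin of glial cells, was above 0 in 7 of 7 WT libraries (0.107 to 1.02 FPKM) and in 2 of 5 CKO libraries (up to 0.449 FPKM). In steps these were 1 to 7 in WT and up to 4 in CKO, and the difference was not tested.

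Scaffolds, cadherins, catenins and regulators that accompany gap junctions did not pass the test. Of 16 such partner genes, 15 were tested, 0 were called higher and 0 lower by limma. At an unadjusted p under 0.05, 2 were higher and 2 lower, and the exact Wilcoxon test with adjustment over all genes called 0. The lowest p was that of Cdh2, the N-cadherin of granulosa cells, at 7.30 ± 1.76 FPKM over WT (SD, n = 7), against 4.73 ± 1.98 FPKM over CKO (SD, n = 5), a log2 fold change of -0.58 (adjusted p = 0.07, limma). Csnk1d, a kinase that phosphorylates connexin 43, and Jup, the plakoglobin of adherens junctions and desmosomes, had log2 fold changes of -0.23 and 0.30 (adjusted p = 0.137 and 0.139, limma). Ctnna1, the alpha-catenin that links cadherins to actin, was at 97.7 ± 11.6 FPKM over WT (SD, n = 7), against 117 ± 16.8 FPKM over CKO (SD, n = 5), a log2 fold change of 0.26 (adjusted p = 0.142, limma). The median log2 fold change of the 15 was 0.02, against -0.01 over all genes tested.

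**Figure D4:**
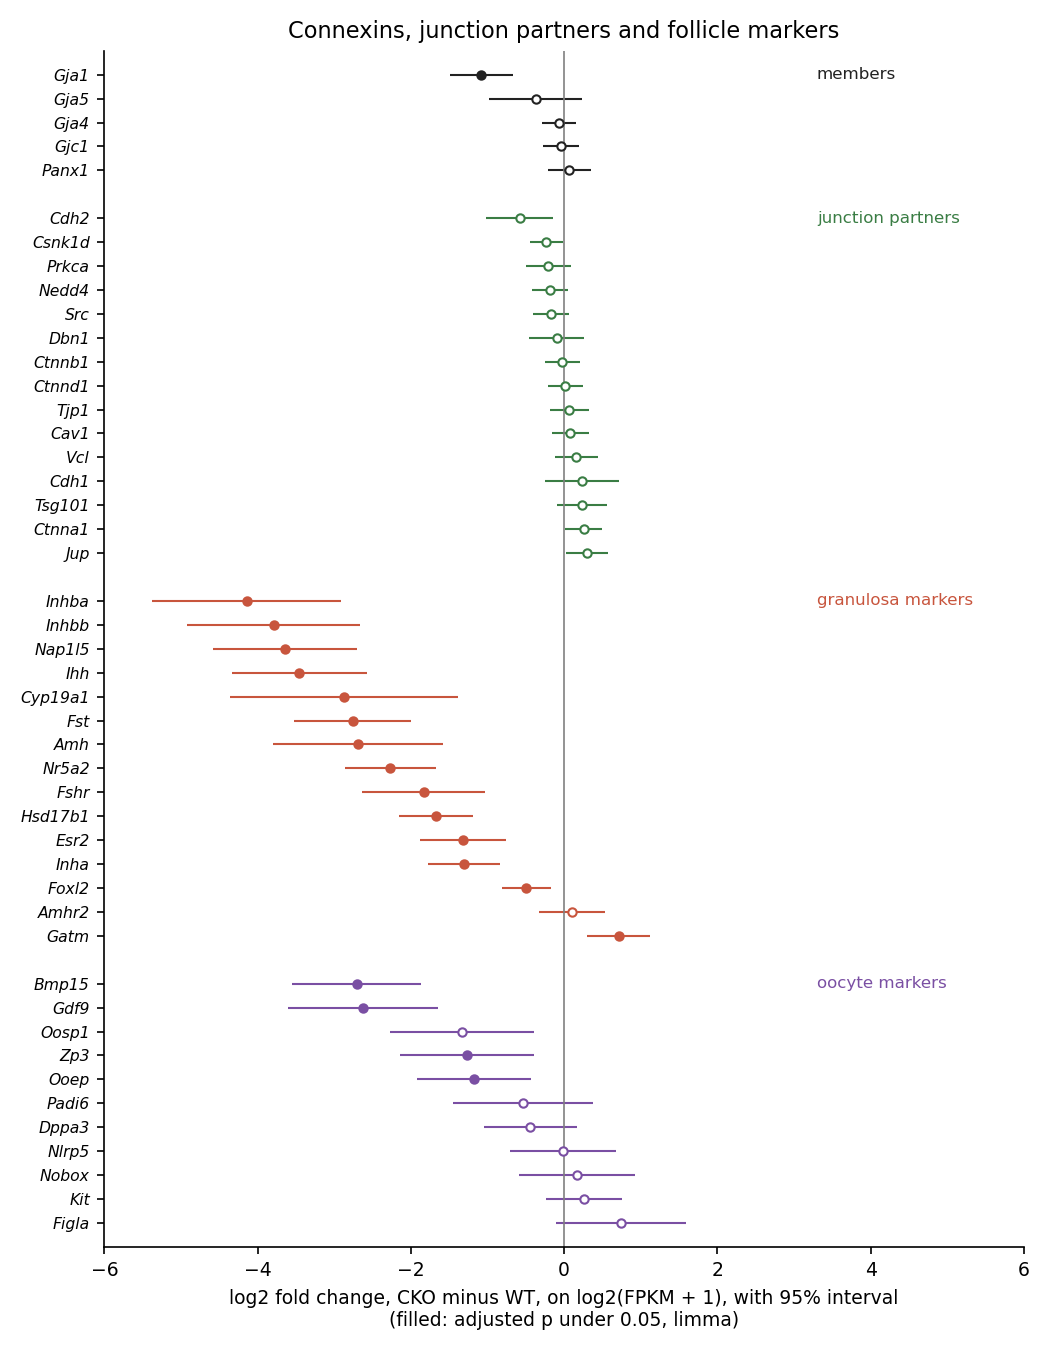
Log2 fold changes, CKO minus WT, on log2(FPKM + 1), with 95% intervals from limma (x axis), for the 5 members tested, 15 junction partners, 15 granulosa markers and 11 oocyte markers. Filled points have an adjusted p under 0.05. Gja1 at -1.08 is the only filled point among the connexins and junction partners, and 12 granulosa markers lie to its left.

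Genes whose levels followed a member most closely were sought after removing the genotype means, over the 12 libraries. Pearson correlations of log2(FPKM + 1) are given as a description of these libraries, since the 3 best of 13168 genes are high by selection. For Gja1 they were Dock4 (0.939), 1110032F04Rik (0.894) and Slfn14 (0.884). For Gja4 they were Cdkn2b (0.874), Cd28 (0.869) and Hist1h4h (0.852), and for Gja5 they were Apof (0.956), Iqgap1 (0.924) and Idnk (0.924). For Gjc1 they were Nisch (0.902), Nid2 (0.880) and Timp3 (0.873), and for Panx1 they were Psd4 (0.958), Atad2 (0.935) and Serbp1 (0.909). All 3 genes nearest to Gja1 were also called lower in CKO, with log2 fold changes of -0.85, -2.02 and -1.44 (adjusted p = 0.0133, 0.000303 and 0.00262, limma). None of those nearest to Gja4 or Gjc1 was called. Of those nearest to Gja5, Apof was called lower (-1.93, adjusted p = 0.0406, limma) and Idnk higher (0.40, adjusted p = 0.0228, limma), and of those nearest to Panx1, Atad2 was called lower (-0.85, adjusted p = 0.00436, limma), although neither member was called.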

How the data were processed

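Per the labels, polyadenylated RNA of whole ovaries was sequenced as paired-end libraries. Per the submitters' processing notes, reads were aligned to mm10 with TopHat2 2.0.13, and FPKM were made by the authors with Cufflinks 2.2.1, followed by Cuffdiff. Annotation and strand setting: not given in the sources used here. Deposited log2 fold changes matched the ratio of CKO to WT means (tolerance 0.01) for 99.9% of 12488 genes whose 2 means exceed 1 FPKM; with the deposited p-values and q-values they are quoted only as the authors' values. Columns were matched to samples by their descriptions, and 1 WT column, whose name fits more than 1 WT sample, was left unnumbered.

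Genes with at least 1 FPKM in at least 5 libraries (13168) were tested as log2(FPKM + 1) with limma 3.58.1 (R 4.3.3, trended empirical Bayes, two-sided), which understates fold changes of low genes. Exact permutation tests used all splits into 7 and 5 libraries. The scripts were tested on simulated data. Members, gene lists and alternatives were chosen with earlier results of these data known. Named genes were the members, the family above 1 FPKM, the 4 partners and 2 markers per list with the smallest p, and the 3 genes most like each member; others were named after their values were seen. Some genes of the family and partner lists are not reported here and were left out of those lists' counts and sums. Relative depth came from steps between values of genes below 1 FPKM, 90.1% of which were whole multiples, within 0.1, of the smallest, over 1579 genes. This share includes the smallest value of each gene, a whole multiple by construction, and any value that fell within 0.1 by chance. Positions are RefSeq's (GRCm38.p6), and RefSeq starts lie 1 or 2 bases after the deposited ones for 6 of the 7 members.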

Additional observations from a re-analysis of the deposited data

Results flagged for a closer look

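In 2 of the 14 member and genotype groups, 1 library stood apart from the others by Dixon's test. Chance flags about 1 in 20 groups of normally distributed values. Gjb2 was at 0.613 FPKM in WT replicate 1, against at most 0.175 FPKM in the other WT libraries. Gja6 was at 0.559 FPKM in CKO replicate 3, against at most 0.261 FPKM in the other CKO libraries. These are values of 3 and 2 steps in groups with repeated low values, for which the rate of 1 in 20 need not hold.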

How the results depend on the processing

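The fall of Gja1 kept its direction and its call in all alternatives run, with log2 fold changes of -1.18 to -0.99 when 1 library was left out and -1.27 under quantile normalization. With the exact Wilcoxon test its adjusted p was 0.0327. Same-numbered libraries did not deviate together (correlations of -0.071 to 0.09 over 4 pairs, with 0 of 4 CKO libraries nearest to their own number). The replicate block was fitted only on these 4 pairs, without the other libraries, among them CKO replicate 5 and the unnumbered WT library. With it the log2 fold change of Gja1 was -1.10 (adjusted p = 0.0117, limma). In that fit 756 genes were higher and 622 lower, against 1145 and 999 in the main fit. The block and the libraries left out cannot be told apart in this difference. Without CKO replicates 1 and 5, 671 genes were higher. The log2 fold change of Gja5 ran from -0.52 to -0.23 with 1 library left out and was -0.52 with the replicate block (adjusted p = 0.149, limma), and it did not pass in any alternative run. Values near 0 changed sign without passing the test. With 1 library left out, the log2 difference ran from -0.0981 to 0.0425 for Gjc1 and from -0.0062 to 0.135 for Panx1, in limma and in the exact test alike, from -0.129 to 0.0637 for the pair of Gja4 and Gjc1, and from -0.199 to 0.0486 for the pair of Gjc1 and Panx1. Without CKO replicates 1 and 5, Gjc1 was at 0.09 and Panx1 at -0.0578, and with CKO replicate 1 and the unnumbered WT library both left out Gjc1 was at 0.0398. The exact-test difference of Gjb2, 0.64, became 1.81 with a pseudocount of 0.1 (adjusted p = 0.168), and with 1 library left out it ran from 0.42 to 0.84, with adjusted p = 0.0212 without CKO replicate 5, and that of the pair of Gja1 and Gjc1 from -1.22 to -0.95, with adjusted p = 0.0505 without CKO replicate 3. The cause of these shifts was not tested. Values below 1 FPKM rest on few fragments, which limits Gjb2, Gja6 and the low connexins.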
